A study of Mus musculus with 35 samples.

Results

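The microRNAs described here lie in introns of Htr2c, the gene of the serotonin 2C receptor, on the mouse X chromosome. They were taken by name from the small RNA counts. Each row whose name held 1 of 10 listed mature microRNAs was kept, which gave 9 of 44884 rows and of the 1914 that are microRNAs: mmu-miR-764-5p, mmu-miR-764-3p, mmu-miR-1912-3p, mmu-miR-1264-5p, mmu-miR-1264-3p, mmu-miR-1298-5p, mmu-miR-1298-3p, mmu-miR-448-5p and mmu-miR-448-3p. The remaining listed microRNA, miR-1911-5p, was not analysed here. All 9 rows passed the filter on low counts.

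The study followed the hippocampus of C57BL/6J mice after pilocarpine, a muscarinic agonist that starts seizures and status epilepticus (SE). SE mice were males and females of 6 to 7 weeks and received intraperitoneal pilocarpine, for which the sample labels give 350 mg/kg. By the study's methods that was the opening dose, and smaller ones followed until SE set in, so the total may have differed between mice. Control mice of the same strain and age received the saline vehicle, and by the study's methods both groups were given scopolamine beforehand to limit peripheral cholinergic effects. Small RNA was sequenced from 2 SE and 2 control hippocampi at each of 4 times (1, 8, 24 and 120 h), 16 libraries in all. Poly(A) mRNA, used here for Htr2c itself, was sequenced in 3 SE mice with 2 controls at 1 h, in 2 SE mice with 3 controls at 8 h, and in 3 SE mice each at 36 and 120 h, which share 3 controls. The labels name no transgene or mutant allele in any group.

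Small RNA totals were 3171341 to 7683708 counts a library, of which 87.3 to 95.5% fell on microRNA rows. The neuronal microRNAs miR-9-5p (163700 to 278300 CPM) and miR-124-3p (35650 to 85940 CPM) were abundant in every library, which fits brain tissue but is not particular to the hippocampus. The 4 libraries of 8 h form a sequencing batch of their own in the labels, and the other 12 form another. On that reading SE and control are compared within a batch at each time, but a difference between 8 h and the other times cannot be told apart from the batch. In bulk tissue, fewer cells of a type and less RNA per cell cannot be told apart either.

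The serotonin 2C receptor signals through Gq and phospholipase C, and its pre-mRNA is edited by adenosine deaminases and alternatively spliced. It is found in neurons of many brain regions and is especially abundant in the epithelium of the choroid plexus, the tissue in the ventricles that makes cerebrospinal fluid and that borders the hippocampus. Hairpins in introns are cut out by Drosha and trimmed by Dicer, and each of the resulting arms, 5p or 3p, can be loaded into an Argonaute protein. Bases 2 to 8 of the mature strand, the seed, set most of its pairing to target mRNAs. In mouse cells, miR-448 is known as a brake on adipocyte differentiation that acts through Klf5.

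The mature sequences show that these neighbours in 1 gene are not members of 1 seed family. Seeds are in capitals.
mmu-miR-764-5p: gGUGCUCAcauguccuccu
mmu-miR-764-3p: aGGAGGCCauaguggcaacugu
mmu-miR-1912-3p: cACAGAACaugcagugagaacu
mmu-miR-1264-3p: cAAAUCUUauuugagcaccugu
mmu-miR-1298-5p: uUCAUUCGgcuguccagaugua
mmu-miR-1298-3p: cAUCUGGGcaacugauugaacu
mmu-miR-448-5p: gAACAUCCugcauagugcugcc
mmu-miR-448-3p: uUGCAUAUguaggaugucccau
These come from RefSeq (GRCm38.p6 table), and no sequence is printed for miR-1264-5p. No 2 of the 8 seeds are alike. Among 1679 mature sequences, the only other one with bases 2 to 8 of a member was miR-7062-5p, which has the seed of miR-764-3p. It had 0 or 1 count in every library. The seed of miR-448-3p shares its first 6 bases with that of miR-153-3p, a neuronal microRNA, and the capitals here mark bases 2 to 7 of both.
miR-448-3p, bases 2 to 7: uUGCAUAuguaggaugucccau
miR-153-3p, bases 2 to 7: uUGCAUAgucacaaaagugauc
The level of miR-153-3p was 41.6 to 321.7 CPM, so miR-448-3p and miR-153-3p were both present in each hippocampus. miR-6335 carries the same 6 bases but had 4 counts in all 16 libraries together.

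Each sequence matched the X chromosome of NCBIM37 (mm9) once, on the plus strand, like Htr2c itself (ENSMUSG00000041380, chrX:143397056-143631820). The 5p and 3p arms of miR-764 lie at chrX:143436828-143436846 and chrX:143436867-143436888, miR-1912-3p at chrX:143444036-143444057 and miR-1264-3p at chrX:143445198-143445219. The arms of miR-1298 lie at chrX:143499461-143499482 and chrX:143499513-143499534. All of these fall in intron 3 of the 7-exon transcript Htr2c-001, 39.8 to 102.5 kb from the start of the gene. The arms of miR-448 lie further downstream in intron 5, at chrX:143592764-143592785 and chrX:143592824-143592845. None of them overlaps an exon of any of the 8 annotated Htr2c transcripts, so these mature arms are intronic in this annotation and are spread over 2 introns. Whole hairpins were not placed, nor was miR-1264-5p.

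The 9 microRNAs spanned more than 3 orders of magnitude. Levels are given in CPM, the usual depth-scaled count unit, after TMM scaling of library sizes and with no correction for length because the mature strands differ little in it. miR-1298-5p was far the most abundant, with a median of 4336 CPM (694 to 8464 over 16 libraries) and rank 32 by median among 1914 microRNA rows. It alone made up 77.4 to 88.4% of the counts of the 9. miR-448-3p followed with a median of 407 CPM (71.8 to 1007) and miR-1298-3p with 121.4 CPM (43.0 to 256.8). This order, miR-1298-5p above miR-448-3p above miR-1298-3p above miR-1264-3p, held in 16 of 16 libraries.

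The middle of the order was not settled by these libraries. miR-1264-3p (median 34.9 CPM) was above miR-1264-5p (23.4 CPM) in 11 libraries, miR-1264-5p above miR-1912-3p (21.3 CPM) in 12, and miR-1912-3p above miR-448-5p (13.8 CPM) in 10. miR-448-5p in turn exceeded miR-764-3p (5.37 CPM) in all 16 libraries. miR-764-5p was the rarest at 3.1 CPM, with 4 to 51 counts a library, and was below miR-764-3p in 15 libraries and level with it in the other. At such counts a library's value for miR-764-5p is imprecise from counting alone.

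mmu-miR-1298-5p, the leading product of the locus, had 5520 and 4683 CPM in SE mice at 1 h, against 694 and 3101 CPM in controls. At 8 h it had 4770 and 5766 CPM in SE mice and 5513 and 2003 CPM in controls. Both SE mice were above both controls at 1 h, while at 8 h 1 control lay between the SE mice. At 24 h the SE mice had 4206 and 5748 CPM and the controls 8464 and 801 CPM, the highest and nearly the lowest values of the series. At 120 h the values were 3672 and 2592 CPM in SE mice and 4467 and 1064 CPM in controls, so that at both late times the SE pair lay inside the control pair.

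The log2 fold change of miR-1298-5p, SE over control, was 1.43 ± 0.97 at 1 h and 0.49 ± 0.95 at 8 h, and at the later times 0.10 ± 0.95 (24 h) and 0.18 ± 0.95 (120 h), with n = 2 each and ± the standard error. None passed edgeR's quasi-likelihood test, with an adjusted p of 0.99 (1 h), 0.86 (8 h) and 1.0 (24 and 120 h). Without control replicate 1, the lowest library, the value at 1 h was 0.71, and without control replicate 2 it was 2.75. In the same order it was 1.40 and -0.06 at 8 h, 2.64 and -0.76 at 24 h, and 1.55 and -0.46 at 120 h, so that its direction at the 3 later times changed with the control left out. With no filter on low counts the value was 1.38 and passed edgeR's test with an adjusted p of 0.0388, where the adjusted p under the other alternatives ran up to 1.0.

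mmu-miR-448-3p, the main strand of the hairpin in intron 5, moved much like it. It had 498 and 441 CPM in SE mice at 1 h and 71.8 and 326 CPM in controls, then 991 and 1007 CPM in SE mice at 8 h and 858 and 296 CPM in controls. Both SE mice were above both controls at these 2 times. At 24 h the values were 360 and 553 CPM in SE mice and 802 and 107.7 CPM in controls, and at 120 h 376 and 299 CPM in SE mice and 438 and 113 CPM in controls. The SE pairs again lay inside the control pairs. Log2 fold changes were 1.24 ± 0.91, 0.79 ± 0.90, 0.01 ± 0.89 and 0.29 ± 0.90 at the 4 times (standard error, n = 2 each), with adjusted p from edgeR of 0.73 at 8 h and 1.0 at the other times. These values turn on single controls. At 1 h the value was 0.52 without control replicate 1 and 2.58 without control replicate 2, at 8 h 1.76 and 0.22, at 24 h 2.09 and -0.81, and at 120 h 1.57 and -0.33 in the same order.

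mmu-miR-1912-3p showed the widest range of the 9, 15.6-fold between libraries. It had 31.0 and 22.6 CPM in SE mice at 1 h and 3.33 and 15.02 CPM in controls, with a log2 fold change of 1.56 ± 1.07 (standard error, n = 2 each), the highest of any member at any time. This value did not pass either (adjusted p = 0.99 from edgeR), and it was 0.83 without control replicate 1 and 2.87 without control replicate 2. At 24 h its controls alone spanned 52.0 and 4.63 CPM, around SE values of 17.9 and 32.9 CPM. The spread between 2 control mice was thus larger than the difference between the groups.

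Among the rarer strands, miR-448-5p had the smallest p at 8 h. It had 10.98 and 11.17 CPM in SE mice at that time and 5.997 and 3.469 CPM in controls, which did not overlap (log2 difference 1.21 ± 0.70, adjusted p = 0.47 by edgeR). miR-1298-3p, the minor arm of its hairpin, had the smallest p at 1 h, with 122.3 and 120.4 CPM in SE mice and 42.99 and 78.9 CPM in controls (1.00 ± 0.66, adjusted p = 0.99 by edgeR, and 0.62 to 1.36 without 1 library). At 8 h it had 256.8 and 203.6 CPM in SE mice and 178.8 and 95.4 CPM in controls, again without overlap. Neither strand kept its groups apart later. At 120 h, miR-1298-3p had 128.1 and 52.72 CPM in SE mice and 138.9 and 56.75 CPM in controls, and miR-448-5p had 11.39 and 16.13 CPM in SE mice and 23.37 and 8.849 CPM in controls.

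The arms of miR-1264 were close in level but not in pattern. At 8 h, miR-1264-3p had 62.12 and 57.95 CPM in SE mice and 40.07 and 20.12 CPM in controls, while miR-1264-5p had 20.17 and 19.39 CPM in SE mice and 15.54 and 7.632 CPM in controls. Both strands were higher in both SE mice at that time. The 3p strand had its highest level of the series in these 8 h SE mice, and the 5p strand had its highest in a 24 h control (59.26 CPM, against 26.7 and 44.09 CPM in the SE mice of that time). miR-764-3p, the more abundant arm of the first hairpin in the gene, had 5.765 and 6.288 CPM in SE mice at 1 h and 3.573 and 4.886 CPM in controls, and at 24 h 5.019 and 6.717 CPM in SE mice and 13.3 and 4.973 CPM in controls.

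**Figure D1:**
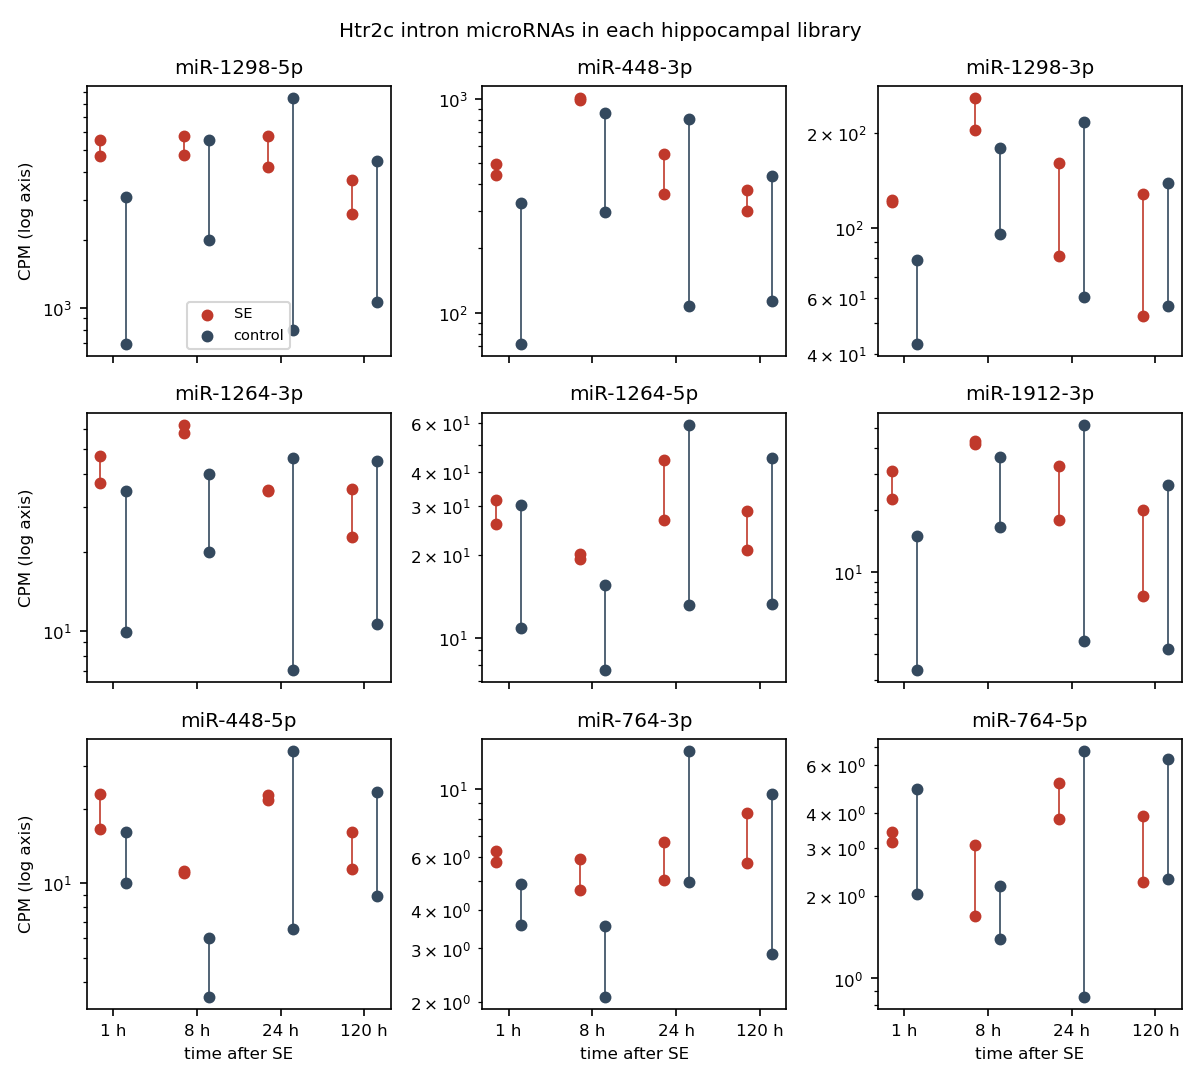
CPM on a log axis of the 9 microRNAs in each of 16 libraries at 1, 8, 24 and 120 h, SE mice (red, left) beside control mice (dark, right), with a line joining the 2 mice of a group. At each time 1 control library is low for nearly every member, and miR-1298-5p runs from 694 to 8464 CPM.

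Over all 9 members the picture was the same. At 1 h, 8 of 9 had a positive log2 fold change, with a median of 0.93 (-0.04 to 1.56), where the median of all 1103 features tested was 0.07. At 8 h, 9 of 9 were positive, with a median of 0.76 (0.40 to 1.21) against 0.03 for all features. At 24 h and 120 h the members' medians were 0.01 and -0.11, with 5 and 4 of 9 positive, and the medians of all features -0.03 and -0.01. Nothing was called at any time. At each of the 4 times the edgeR quasi-likelihood test called 0 of 9 members and 0% of 1103 features, and no member had an unadjusted p under 0.05 (lowest 0.11, miR-448-5p at 8 h).

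At an unadjusted p under 0.05 the same test gave 42, 155, 14 and 29 features at the 4 times. DESeq2 called 0, 14, 0 and 1 features and edgeR's likelihood ratio test 0, 16, 0 and 0, with 0 members among them. The SE effect was also set between times. The fitted difference was lower at 24 h than at 8 h for 9 of 9 members (median -0.80, all features -0.09) and lower at 120 h than at 1 h for 9 of 9 (median -0.87, all features -0.10). In these 6 contrasts the quasi-likelihood test called 0% of 1103 features and 0 members, and the lowest unadjusted p of a member was 0.092 for miR-764-3p, 24 h minus 8 h (log2 difference -1.53 ± 0.83, standard error). Unadjusted p under 0.05 was reached by 9 to 109 features and 0 members, and DESeq2 called 0 to 3 features.

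**Figure D2:**
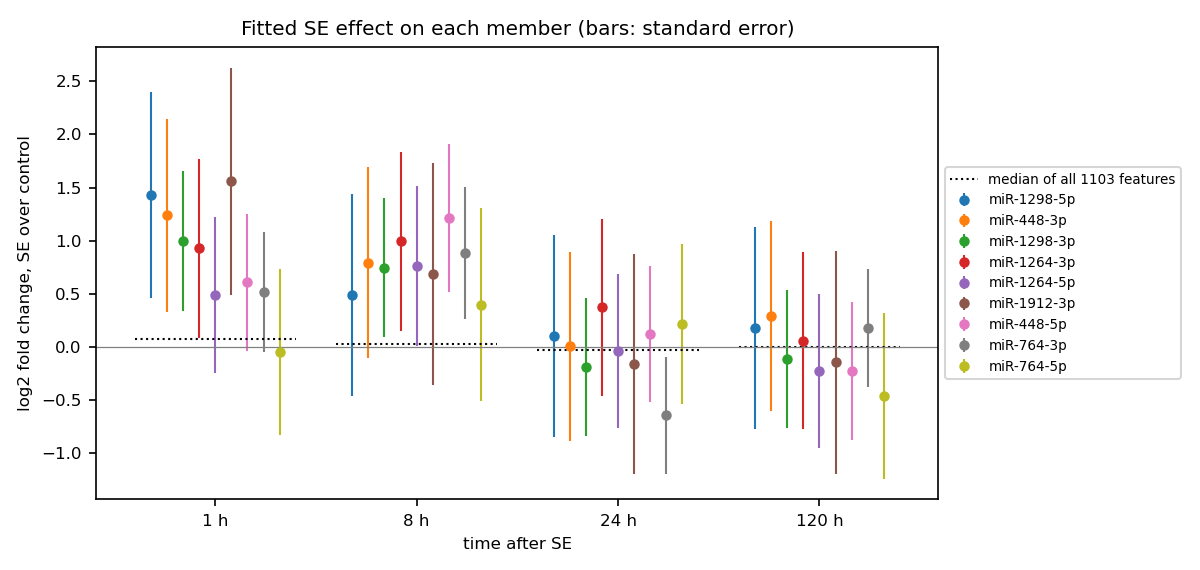
Log2 fold change of SE over control with its standard error for the 9 microRNAs at 1, 8, 24 and 120 h, and the median of all 1103 features as a dotted line. Members sit mostly above 0 at 1 h and 8 h and around 0 at 24 h and 120 h, and none passed the test.

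Counted without a model, both SE libraries were above both controls for 7 of 9 members at 1 h, against 17.7% of all 1103 features, and for 7 of 9 at 8 h, against 21.7%. At 24 h and 120 h the count was 0 of 9, against 15.9% and 12.1% of features. The members come from 1 gene and move together, so these are not 9 separate observations. With CPM set on total counts, the counts were 6 and 5 of 9 at 1 h and 8 h. The share of all features on that scale is not given here, and the shares above are for CPM after TMM. The exceptions at 1 h were miR-764-5p (3.42 and 3.14 CPM in SE mice, 2.02 and 4.89 CPM in controls) and miR-1264-5p (31.5 and 25.9 CPM in SE mice, 10.8 and 30.2 CPM in controls).

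A more regular feature was the unequal spread of the groups. For 8 of 9 members the 2 control mice differed more than the 2 SE mice at all 4 times on a log2(CPM + 1) scale, which held for 2.81% of all features. miR-764-5p did so at 3 of 4 times. The members move together, so here too they are not 9 separate observations. The trait is not theirs alone, since the summed choroid plexus microRNAs given below also differed more between controls at all 4 times. Summed over the 9 members, SE mice had 6283 and 5356 CPM at 1 h and controls 849 and 3612 CPM. At 8 h, SE mice had 6161 and 7117 CPM and controls 6653 and 2446 CPM. At 24 h, SE mice had 4757 and 6608 CPM and controls 9693 and 1006 CPM. At 120 h the sums were 4283 and 3019 CPM in SE mice and 5200 and 1276 CPM in controls. At all 4 times the lower control had less than either SE mouse, and at 1 h both controls did. The 8 SE libraries thus lay between 3019 and 7117 CPM, and the 8 control libraries between 849 and 9693 CPM.

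The members varied together from library to library. Over 16 libraries Pearson's r of log2 CPM was positive for all 36 pairs, from 0.24 to 0.97 with a median of 0.63. Within the 12 libraries of 1 batch it was 0.64 to 0.99 with a median of 0.88. These are descriptions, since the values of a library share its depth and scaling. The closest pair in the 12 libraries was miR-1298-5p with miR-448-3p, whose hairpins lie in different introns of the gene. Over all 16 libraries the closest pair was miR-1912-3p with miR-448-3p.

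Among 654 other microRNAs, those most like the mean log2 CPM of the 9 members over 16 libraries were miR-34c-3p (r = 0.88), miR-204-3p (r = 0.75), miR-375-3p (r = 0.73), miR-363-3p (r = 0.73) and miR-204-5p (r = 0.73). Within the 12 libraries of 1 batch their r was 0.90, 0.83, 0.85, 0.78 and 0.96. miR-204 is made from an intron of Trpm3 and is abundant in choroid plexus and retinal pigment epithelium. miR-34c belongs to the miR-34b/c pair of multiciliated cells, which include the ependyma and choroid plexus. miR-375 is best known from pancreatic islets and pituitary, and miR-363 belongs to another microRNA cluster of the X chromosome. Hence 3 of the 5 came from the list of 12 choroid plexus microRNAs used here as markers (the arms of miR-204, miR-211, miR-34b, miR-34c, miR-449a and miR-449c), of which 8 were among the 654. Of the other 5, miR-34c-5p and miR-34b-3p ranked 8 and 11, while miR-449a-5p, miR-34b-5p and miR-211-5p ranked 62, 75 and 155 (r = 0.27, 0.23 and 0.10).

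Of these 12 marker strands, 8 passed the filter and were tested, miR-211-3p was at 0 in all 16 libraries and miR-449a-3p, miR-449c-5p and miR-449c-3p had at most 3 counts in any. miR-204-5p, the most abundant, had 1209 to 8592 CPM, and miR-34c-5p had 218 to 2418 CPM. Some of them, miR-34b and miR-34c in particular, are also made by other ciliated cells and by neurons. Their summed level at 1 h was 5782 to 7485 CPM in SE mice and 2629 to 4930 CPM in controls, and at 8 h 2311 to 3226 CPM in SE mice and 1500 to 3075 CPM in controls, where the groups overlapped. At 24 h it was 6164 to 6874 CPM in SE mice and 2330 to 11510 CPM in controls, and at 120 h 4696 to 4709 CPM in SE mice and 2696 to 6315 CPM in controls. For both this sum and the summed members, the SE mice were above the controls at 1 h and inside their range at 24 h and 120 h, which single members did not all follow. No marker was called at any time by edgeR's quasi-likelihood test, 1 had an unadjusted p under 0.05 (at 120 h), and the median log2 fold change of the 8 was 0.69, 0.21, -0.20 and -0.14 at the 4 times.

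The choroid plexus score, the mean log2 CPM of the 8 markers, was 5.20 in the 1 h control with 849 CPM of members and 5.30 to 5.31 in the low controls of 24 h and 120 h. It was 6.86 in the 24 h control with 9693 CPM. Over all 16 libraries the score was related to miR-448-5p (r = 0.93, rho = 0.92, p = 1e-05 in a permutation test, adjusted p = 0.00027 over 54 relations), where 1e-05 is the smallest p that 100000 permutations can give. Libraries were shuffled freely over times and groups in this test, so its p does not allow for either. It was likewise related to miR-1264-5p (r = 0.91, rho = 0.90), miR-764-3p (r = 0.83, rho = 0.78) and miR-764-5p (r = 0.78, rho = 0.80), with adjusted p of 0.00027, 0.00144 and 0.00621 in the same permutation test. Without the 2 libraries farthest from the median score, r of these 4 was 0.86, 0.84, 0.64 and 0.70. The other 5 members did not pass over 16 libraries (r = 0.22 to 0.51).

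Within the 12 libraries of 1, 24 and 120 h, however, all 9 members were related to the score. There r was 0.79 to 0.93 and rho 0.76 to 0.94, and the adjusted p ran from 0.00108 to 0.0138 in the permutation test over 54 relations. These shuffles too ran freely over times and groups. The score and the members share the depth and scaling of a library, and the marker list was chosen with earlier results of these data known. The relations therefore serve as descriptions. Without the 2 libraries farthest from the median score, r in this batch was still 0.75 to 0.94. The 8 h batch has 4 libraries, too few for a value of its own. Neither the neuronal markers (r = -0.56 to -0.19), the oligodendrocyte markers (-0.69 to -0.47), the endothelial marker (-0.39 to -0.01), the immune markers (0.02 to 0.23) nor the blood markers (-0.32 to 0.12) passed with any member in these 12 libraries. The oligodendrocyte markers came nearest, with rho of -0.825 to -0.622 and a smallest adjusted p of 0.0841 in the permutation test. Their score rests on 2 strands, among them miR-338-3p at 1.39 to 7.26 CPM. Over all 16, the immune markers passed with miR-448-5p alone (r = 0.68, rho = 0.48, adjusted p = 0.0368 in the permutation test), and r was 0.31 without the 2 farthest libraries. With the score as a covariate, the log2 fold change of miR-1298-5p at 1 h was 0.48 ± 0.40 and that of miR-448-3p 0.38 ± 0.41 (standard error), and no member was called at any time. The part of choroid plexus in the SE and control values was not tested further.

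**Figure D3:**
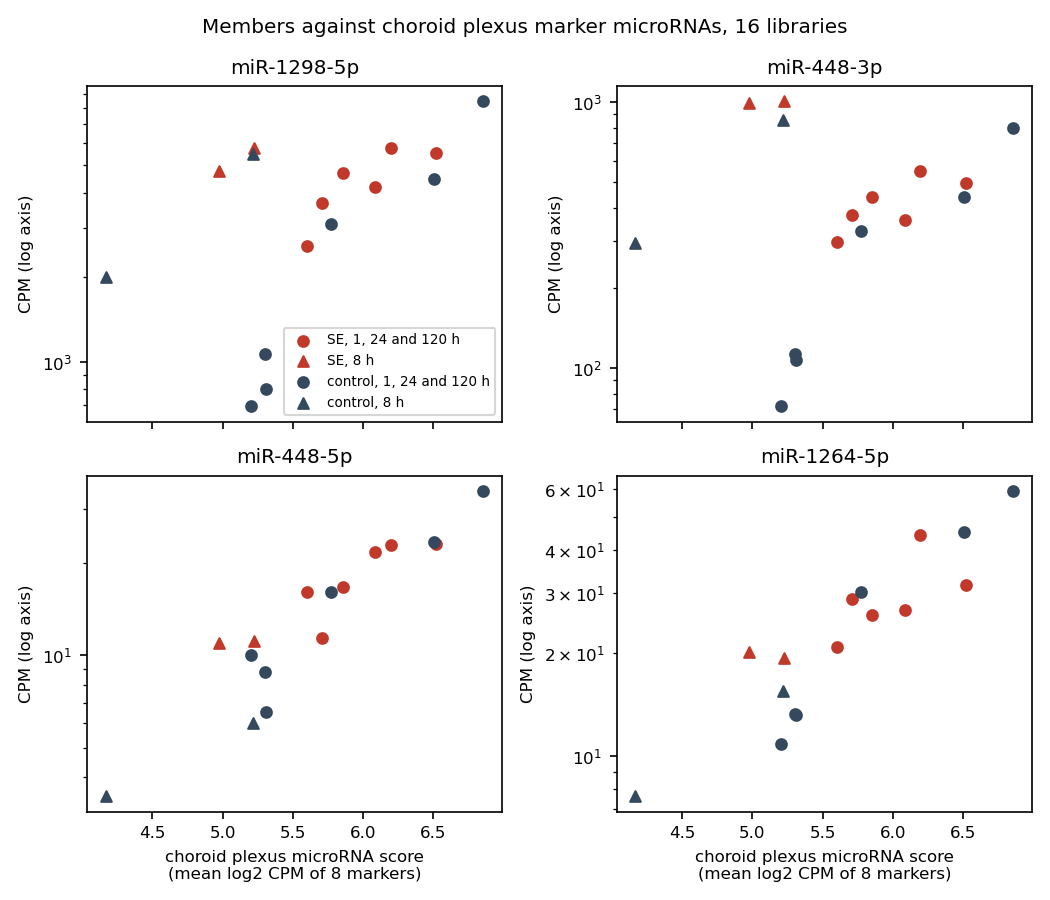
CPM on a log axis of miR-1298-5p, miR-448-3p, miR-448-5p and miR-1264-5p against the choroid plexus score in 16 libraries, SE mice in red and controls in dark, with triangles for the 8 h batch. In the 12 libraries of the other times all 4 members climb with the score, and the 8 h libraries lie above the others at a like score for miR-1298-5p and miR-448-3p.

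The 2 arms of a hairpin need no scaling between libraries, since their ratio is taken within 1 library. The hairpins differed in which arm prevailed. miR-1298 gave 13.3 to 51.5 counts of 5p for each count of 3p in the 12 libraries of 1, 24 and 120 h. miR-448 favoured the other arm, with 7.14 to 32.8 counts of 3p for each of 5p. miR-1264 gave nearly equal arms (0.54 to 1.5 counts of 3p for each of 5p), and miR-764 somewhat more 3p (1.00 to 5.36).

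In the 4 libraries of 8 h the ratios stood apart for 2 hairpins. miR-448-3p had 89.5 and 89.4 counts for each of miR-448-5p in SE mice and 139.9 and 81.4 in controls, and no library of another time came above 32.8. miR-1264-3p had 3.07 and 2.98 counts for each of miR-1264-5p in SE mice at 8 h and 2.57 and 2.60 in controls, and no library of another time came above 1.5. For miR-1298 and miR-764 the 8 h values lay inside those of the other times. Time and batch cannot be told apart here, and the separation is seen in SE and control mice alike.

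Between SE and control mice, the ratio of miR-1264 was the clearest of the 4 hairpins. The log2 ratio of 5p to 3p was -0.58 and -0.51 in SE mice at 1 h and 0.13 and -0.19 in controls, and -1.62 and -1.58 in SE mice at 8 h and -1.36 and -1.38 in controls. At 24 h it was -0.37 and 0.34 in SE mice and 0.35 and 0.90 in controls, and at 120 h -0.28 and -0.14 in SE mice and -0.01 and 0.33 in controls. At all 4 times both SE mice were below both controls, though at 24 h only barely, which means more 3p relative to 5p after SE. The mean difference was -0.44 on the log2 scale (means of -0.59 in SE mice and -0.15 in controls, n = 8 each), with p = 0.0015 in an exact two-sided permutation test within times, the smallest that 1296 relabelings can give. Without 1 library at a time it was -0.53 to -0.35.

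This result does not pass when all hairpins are counted. Of 190 hairpins with both arms measured, 0% passed at an adjusted p under 0.05 in that test, while an unadjusted p under 0.05 was reached by 9 of them (4.74%). The miR-1264 hairpin alone reached the smallest p, with an adjusted p of 0.29, below which no single hairpin could go. In the 12 libraries outside the 8 h batch the difference was -0.51 (p = 0.0093 in the exact permutation test, the smallest possible there). The controls with the highest ratio at 1 h, 24 h and 120 h are also those with the least members and the lower choroid plexus score, and the part of that in the ratio was not tested. The differences of miR-1298 (0.53, p = 0.11), miR-448 (-0.36, p = 0.21) and miR-764 (-0.11, p = 0.75) did not pass the exact permutation test.

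**Figure D4:**
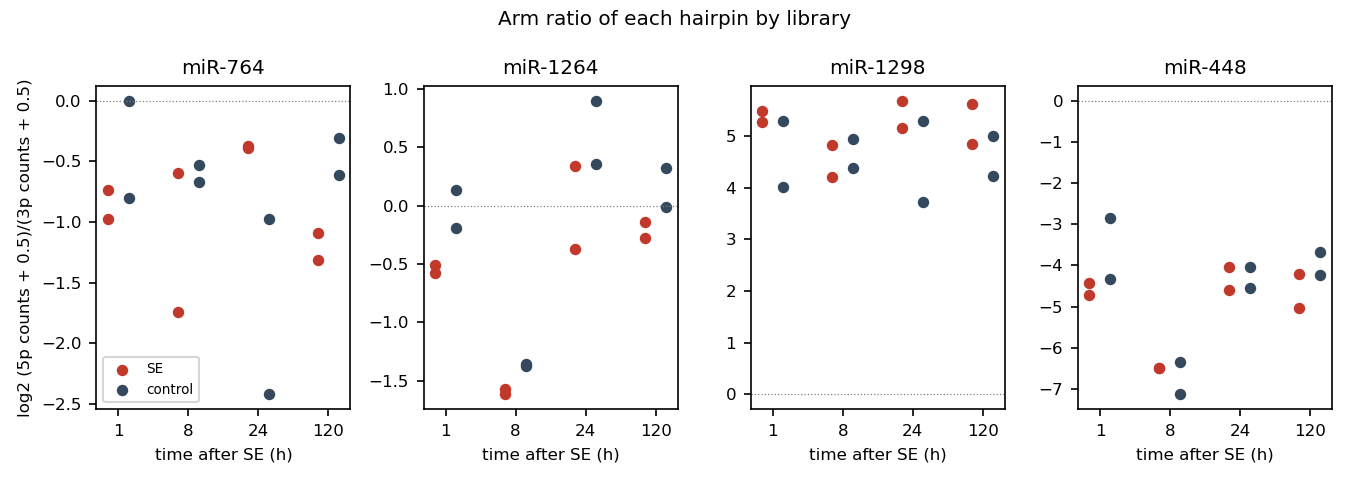
Log2 ratio of 5p to 3p counts, with 0.5 added to each, for the hairpins miR-764, miR-1264, miR-1298 and miR-448 in 16 libraries, SE mice (red, left) beside controls (dark, right) at 1, 8, 24 and 120 h. In miR-1264 the SE mice lie below the controls at each time, and in miR-448 and miR-1264 the 8 h libraries lie below all others.

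The mRNA of the host gene, Htr2c, was measured in its own libraries. At 1 h it had 150.6, 127.0 and 123.1 CPM in SE mice and 130.5 and 102.0 CPM in controls, with overlapping groups (0.20 ± 0.14 on the log2 scale, with an adjusted p of 1.0 by edgeR). At 8 h it had 69.1 and 60.6 CPM in SE mice and 59.7, 86.0 and 52.6 CPM in controls (-0.04 ± 0.23, with an adjusted p of 0.96 by edgeR). The SE mice lay inside the range of the controls. The libraries of 1 h and of 8 h each came from 2 batches as read from their titles, and with batch as a covariate the values were 0.21 ± 0.14 (1 h) and -0.11 ± 0.19 (8 h). Those of 36 and 120 h came from 1 batch.

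At 36 h Htr2c mRNA had 56.5, 74.4 and 32.3 CPM in SE mice and 27.0, 43.4 and 27.0 CPM in controls. The log2 difference was 0.77 ± 0.29 (n = 3 each, ± the standard error) and did not pass (adjusted p = 0.55 by edgeR). At 120 h the 3 SE mice had 38.4, 28.6 and 63.3 CPM against the same controls, and the log2 difference was 0.43 ± 0.29 (adjusted p = 0.68 by edgeR). In each of these SE groups 1 or 2 mice stood above the controls and the rest overlapped with them. The share of genes called by edgeR's quasi-likelihood test was 0.0799% in the 1 h comparison and 0% in that of 8 h, and the late comparisons gave 0.0252% (36 h) and 0.0563% (120 h). At 8 h, 1478 of 15610 genes had an unadjusted p under 0.05, and DESeq2 called 96 and the likelihood ratio test 89.

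At 36 and 120 h the libraries with high Htr2c mRNA were those with high choroid plexus markers. The mean log2 CPM of 20 marker genes, among them the thyroxine carrier Ttr, was 5.58 and 5.55 in the SE mice of 36 h with 56.5 and 74.4 CPM of Htr2c, and 0.82 in the SE mouse with 32.3 CPM. At 120 h it was 5.76 in the SE mouse with 63.3 CPM and 0.86 and 0.98 in the others, and in the shared controls it was 0.81 to 1.23. Ttr itself had 6799, 5406 and 34.6 CPM in the 36 h SE mice and 41.7, 96.2 and 27.0 CPM in those controls. All 18 markers tested at 36 h had a positive log2 fold change and an unadjusted p under 0.05, with a median of 4.02 where the median of all genes was 0.01, and none passed adjustment in edgeR's quasi-likelihood test. An unadjusted p under 0.05 was reached by 7.89% of all genes at 36 h. At 1 h, 19 of 20 markers were positive and 11 had an unadjusted p under 0.05, and at 8 h 19 and 2 of 20. At 120 h all 15 tested were positive and 10 had such a p. The shares of all genes with such a p were 4.39, 9.47 and 9.6% at 1, 8 and 120 h. No marker was called at these times by the quasi-likelihood test. The call on these markers at 36 h depended on the test and on 1 library. The likelihood ratio test called 16 of the 18 (125 of 15850 genes in all), DESeq2 9 (102 genes in all) and the replicate block 3. Without SE replicate 3, the mouse with few of them, or with no filter, all 20 were called. With no filter 11 of 20 were also called at 1 h, 9 at 8 h and 0 at 120 h. For the replicate block, the fit without that mouse and the fits with no filter, the count over all genes is not given here.

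With this score as a covariate, the log2 fold change of Htr2c at 36 h was 0.04 ± 0.22, and at 120 h 0.07 ± 0.20 (standard error). Without SE replicate 3, the 36 h mouse with few markers, it was 1.04 ± 0.19 and was called, with an adjusted p of 0.0104 by edgeR. Over the other alternatives tried the adjusted p was at least 0.1178. Without SE replicate 3 of 120 h, the mouse with many, it was 0.05 ± 0.22. At 36 and 120 h a high score was seen only in SE mice, so the fit with this covariate cannot fully separate score from SE. The part of choroid plexus in the Htr2c values was not tested. Summed, the 20 markers ran from 224 to 9227 CPM in the 36 h SE mice, from 244 to 8916 CPM in the 120 h SE mice and from 273 to 382 CPM in their controls. At 1 h they ran from 6448 to 9798 CPM in SE mice and from 4730 to 5905 CPM in controls, and at 8 h from 5253 to 5271 CPM in SE mice and from 1091 to 6125 CPM in controls. Of the 20 markers, 2 (Steap1 and Kcne2) were at 0 in some 36 h SE mouse and none in the other groups.

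**Figure D5:**
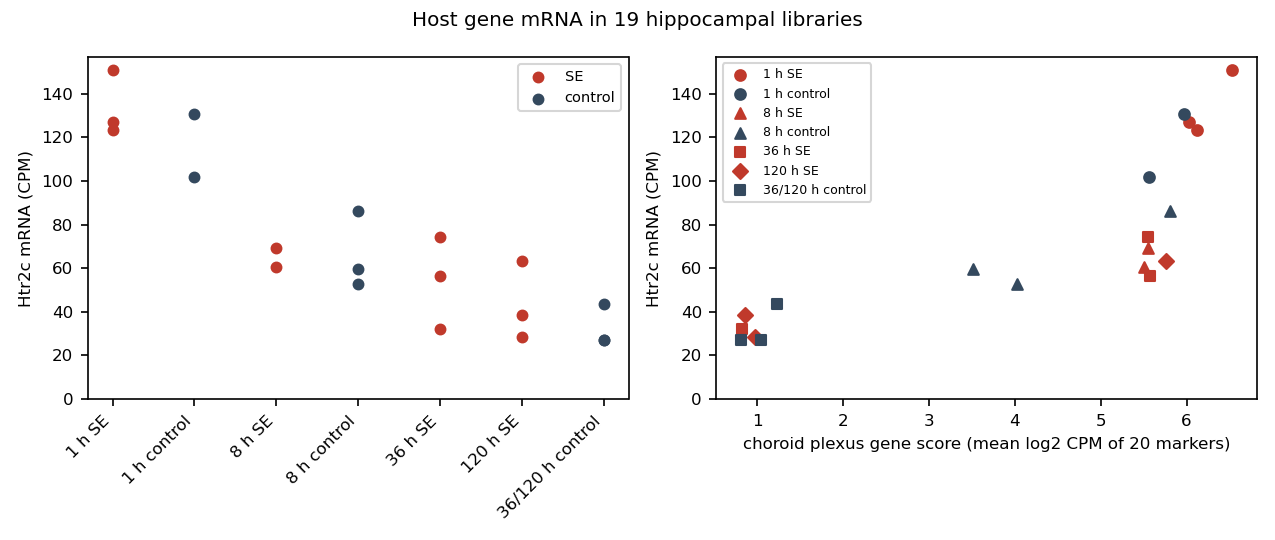
Htr2c mRNA in CPM by group (left) and against the mean log2 CPM of 20 choroid plexus genes (right) in 19 libraries, SE in red and controls in dark. Libraries with a score near 1 have 27.0 to 43.4 CPM of Htr2c, those of 36 h and 120 h with a score above 5 have 56.5 to 74.4 CPM, and those of 1 h have the most.

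Over the 19 libraries, the named genes most like Htr2c in log2 CPM, of 16203 compared, were Cul4b (r = 0.96), a ubiquitin ligase scaffold, Emb (r = 0.96), a chaperone of monocarboxylate transporters, Trpm3 (r = 0.96), the ion channel gene that hosts miR-204, Lamp2 (r = 0.95), a lysosomal membrane protein, and Phactr2 (r = 0.95), a phosphatase and actin regulator. Because the libraries fall apart by choroid plexus score and by time, this r serves only as a measure of likeness.

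At 8 h, 4 titles carry the same numbers in both assays, which sets host and members side by side. The SE mice had 69.1 and 60.6 CPM of Htr2c mRNA with 6161 and 7117 CPM of members, and the controls 86.0 and 52.6 CPM of Htr2c mRNA with 6653 and 2446 CPM of members. The control that was low in Htr2c mRNA was the one low in members, and it had the lower choroid plexus score in both assays (4.17 against 5.22 in microRNAs and 4.02 against 5.81 in mRNA). In the SE pair the order was the other way, with more members where Htr2c mRNA was lower. Only the titles link the 2 assays.

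None of the genes listed as acting with the receptor or making microRNAs was called by edgeR's quasi-likelihood test, though Gnaq, Itpr1, Drosha and Dicer1 each passed under some alternative. Of 13 genes of receptor coupling and editing, edgeR's quasi-likelihood test called 0 at any time, with 0, 0, 2 and 4 of them under an unadjusted p of 0.05 at 1, 8, 36 and 120 h, where the shares over all genes were 4.39, 9.47, 7.89 and 9.6%. The lowest p was that of Gnaq, the Gq subunit through which the receptor signals, with 237, 223 and 216 CPM in SE mice at 120 h and 266, 256 and 282 CPM in controls (-0.24 ± 0.06 on the log2 scale, adjusted p = 0.32 by edgeR). The groups did not overlap, but the gene was picked by its p, and the share of all genes without overlap is not given here. DESeq2 put this gene just past the threshold (adjusted p = 0.049), where the adjusted p over all alternatives ran up to 0.9999. It called 119 of 15996 genes at that time. The inositol trisphosphate receptor Itpr1 had a log2 fold change of -0.39 ± 0.11 at 36 h. It was -0.50 and called (adjusted p = 0.0187 by edgeR) without SE replicate 3, and -0.21 and not called once the score of the choroid plexus genes entered the fit, and the adjusted p over its alternatives ran up to 0.93. At 8 h, Itpr1 was called with batch as a covariate and without control replicate 1. The count of all genes called in the settings that called Itpr1 is not given here. Plcb1, a phospholipase C, and Mpdz, a scaffold that binds the receptor's tail, had -0.17 ± 0.06 and -0.30 ± 0.12 at 120 h, and the Mpdz value was -0.15 without SE replicate 2.

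Of 13 other serotonin receptor genes, 10 were tested and 0 called, with 1 under an unadjusted p of 0.05 at 36 h (Htr5b, log2 fold change -0.40 ± 0.18) and 1 at 120 h (Htr1a, -0.22 ± 0.09). Htr5a (-0.24 ± 0.12 at 120 h) and Htr7 (0.45 ± 0.25 at 8 h) came next. Of 13 genes of microRNA making and loading, 8 were tested and 0 called by edgeR's quasi-likelihood test, with 1 under an unadjusted p of 0.05 (Drosha at 8 h). Drosha, which cuts the hairpins out of the intron, had 118 and 132 CPM in SE mice at 8 h and 156.5, 173.5 and 174.4 CPM in controls, a log2 difference of -0.43 ± 0.15 (n = 2 SE and 3 control mice). Its adjusted p was 0.49 by edgeR, and it was called without control replicate 1, the library of another batch (0.0154), with batch as a covariate (0.016) and with all 19 libraries in 1 fit (0.0404). Over all alternatives its adjusted p ran from 0.0154 to 0.9998. Dicer1, which trims the hairpins, was called at 8 h with batch as a covariate only. The count of all genes called in the settings that called Drosha or Dicer1 is not given here, so these calls are not set against a background. Prkra (-0.51 ± 0.26 at 8 h), a partner of Dicer, and the Argonaute partners Tnrc6b (-0.11 ± 0.05) and Tnrc6a (0.11 ± 0.07), both at 120 h, followed.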

How the data were processed

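The authors prepared small RNA libraries with random-base adapters, trimmed 4 bases from each read end and counted small RNAs with Oasis 2.0 (version as the study names it). Both tables were deposited as raw counts per feature, without normalization, and the authors' mRNA counts were made with HISAT2 2.1.0 on NCBIM37 and HTSeq, per the submitters' processing notes. Small RNA libraries held 3171341 to 7683708 counts and mRNA libraries 8503816 to 28465548. No molecular identifiers were counted, so a limit set by counts covers counting error only, and p-values measure the spread between the labelled samples.

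Members were found by name, and members and marker lists were chosen with earlier results of these data known. Small RNA counts of 16 libraries in 8 groups were fitted in 1 model (edgeR 4.0.16, R 4.3.3, filterByExpr, TMM, quasi-likelihood test, Benjamini-Hochberg over 1103 features, threshold 0.05). Htr2c and gene lists were fitted on the libraries of each time, and 33068 of 43629 gene identifiers could be named. Log2 CPM carries a prior count of 1. Arm ratios used log2((5p + 0.5)/(3p + 0.5)) and an exact permutation test of SE and control labels within times, adjusted over 190 hairpins. Correlations used permutation tests with 100000 resamples, shuffled over all libraries without regard to time or group. The edgeR quasi-likelihood fits of small RNA and of mRNA were tested on simulated counts, and that run did not cover the permutation tests. Mature sequences were matched to NCBIM37 and placed on GENCODE M1. Named genes were the members, Htr2c, small RNAs with a shared seed, the 5 most like microRNAs or genes by Pearson's r, the 4 most abundant markers of each microRNA list and the 4 genes with the smallest p of each gene list, of which some are left out of the text. miR-153-3p was added after its sequence was seen. Alternatives were RLE, TMM on microRNAs, no filter, the likelihood ratio test, DESeq2 1.42.0, the libraries of 1 time, a replicate block, sex, batch and choroid plexus score as covariates, and leaving out each library. Alternatives chosen after seeing the data were the crossed block at 8 h, arm ratios on 12 libraries, and CPM on total or microRNA counts.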

Additional observations from a re-analysis of the deposited data

How the results depend on the processing

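With 2 mice a group, only large differences could pass, and the wide control pairs set the standard errors. Across 36 member fold changes and 477 alternative values, 423 kept direction and call, 53 changed sign without being called in either, and 1 passed, miR-1298-5p at 1 h with no filter, where 1 member was called. All features called numbered 0 in the main fit at each time. With no filter they were 3, 80, 7 and 32 at 1, 8, 24 and 120 h. The likelihood ratio test called 16 at 8 h, and DESeq2 14 at 8 h and 1 at 120 h. Leaving out 1 library gave 0 to 10 at 1 h and 0 to 63 at 8 h (63 without SE replicate 2). The replicate numbers did not pair the small RNA libraries (correlations of deviations 0.179, -0.201, -0.044 and -0.081 at the 4 times). The replicate block called 0 members and 0 features at each time, and with numbers crossed at 8 h, chosen after seeing the data, 6 features and 0 members. With a replicate block Htr2c had log2 fold changes of 0.26, -0.17, 0.73 and 0.39 at 1, 8, 36 and 120 h and was not called. Htr2c at 1 h was -0.10 once the choroid plexus score entered as covariate. Leaving out 1 library gave Htr2c values of 0.03 to 0.38, -0.19 to 0.20, 0.48 to 1.04 and 0.05 to 0.69 at these times. Arm ratio differences without 1 library were -0.29 to 0.068 for miR-764, -0.53 to -0.35 for miR-1264, 0.33 to 0.72 for miR-1298 and -0.55 to -0.17 for miR-448. The miR-764 value was 0.041 in the 12 libraries outside the 8 h batch, also chosen after seeing the data. With CPM on total counts, r of the 9 members with the score in 12 libraries was 0.80 to 0.93. The causes of these changes were not tested.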

Other observations

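The 5p strand of miR-1912, which is not among the listed microRNAs, also has counts. It had 9 and 9 counts in SE mice at 1 h and 2 and 10 in controls, and 3 and 6 in SE mice at 8 h and 0 and 1 in controls. At 24 h it had 8 and 13 counts in SE mice and 23 and 0 in controls, and at 120 h 12 and 7 in SE mice and 12 and 3 in controls. The 24 h control that was highest for the 9 members was highest here too, and a count of 0 allows up to 3 counts at that depth, for counting error only.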
